A study of Mus musculus with 4 samples.

Results

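The expression of 9 genes of the complement system was followed across 4 expression arrays of mouse embryonic fibroblasts (MEFs). They were chosen by name: C1qa, C1qb, C1qc, C1s, C2, C3, C4b, Cfb and Serping1, which the array covers with 13 of its 45281 probes and 9 of its 30872 genes. The arrays (Illumina mouse whole-genome BeadChip) held 1 sample of each condition. All cells were FVB;129 embryonic fibroblasts with a floxed Rb gene. Parental MEFs received 2 rounds of 1 h each, 3 h apart, of a solution without TAT-Cre, a cell-permeable recombinase, and medium in place of virus. Rb-deleted MEFs received TAT-Cre and medium, WT Rb-HA MEFs received TAT-Cre and a retrovirus for wild-type Rb, and ΔCdk Rb-HA MEFs received TAT-Cre and a retrovirus for an Rb mutant at the Cdk phosphorylation sites. Per the methods all were held by contact inhibition for 48 hr, released for 4 hr and given the DNA-damaging drug doxorubicin at 100 ng/ml for 3 hr. The labels do not mention the arrest or the drug. The virus-treated cells are called WT and ΔCdk MEFs below.

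Complement is a cascade of plasma proteins that tags and lyses targets. In the classical pathway, C1q, a recognition protein built from A, B and C chains, binds immune complexes or dying cells. It works with the proteases C1r and C1s, and C1s cleaves C4 and C2 to form the enzyme that splits C3. Factor B, from Cfb, forms the corresponding enzyme of the alternative pathway, and the C1 inhibitor, from Serping1, switches off C1r and C1s. Liver cells make most of the circulating components, fibroblasts can make several of them, and the C1q chains are made chiefly by macrophages and dendritic cells.

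The C1q probes are shown because the largest differences below rest on these 3 measurements. Each of the 50-base probes was the single probe of its gene, ordered by chain, with the base of the transcript where it starts in the name.
C1qa, position 724: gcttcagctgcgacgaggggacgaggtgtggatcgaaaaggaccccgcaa
C1qb, position 705: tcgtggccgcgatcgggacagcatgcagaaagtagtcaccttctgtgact
C1qc, position 589: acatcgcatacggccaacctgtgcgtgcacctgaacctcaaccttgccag
The longest run of bases that 2 of these probes had in common was 5, and no C1q probe shared 16 or more bases with a probe of any other gene on the array. C1s and Serping1 each had a pair of probes that start 6 bases apart on the same sequence, and these are shown because they are repeat measurements of nearly the same target. Capitals mark the 44 bases that the probes of a pair share.
C1s, position 1056: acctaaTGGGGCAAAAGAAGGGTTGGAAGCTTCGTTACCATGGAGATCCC
C1s, position 1110: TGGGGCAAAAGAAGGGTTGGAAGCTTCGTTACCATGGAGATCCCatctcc
Serping1, position 1509: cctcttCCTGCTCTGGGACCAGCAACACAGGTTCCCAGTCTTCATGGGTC
Serping1, position 1515: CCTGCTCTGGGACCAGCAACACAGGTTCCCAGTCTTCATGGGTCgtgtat
The positions of the C1s pair count from different versions of its transcript. On the GRCm38.p6 assembly of RefSeq the C1q genes lie side by side on chromosome 4, C1qb at chr4:136880126-136886200, C1qc at chr4:136889801-136892936 and C1qa at chr4:136895916-136898844. Cfb (chr17:34856374-34862514) and C2 (chr17:34862602-34882100) are also neighbours, with C4b (chr17:34728139-34743902) nearby and C3 farther along the chromosome at chr17:57203967-57228136. C1s, named C1s1 in RefSeq, lies at chr6:124530344-124542392 and Serping1 at chr2:84765360-84775444.

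Values are bead-averaged intensities on a linear scale as deposited, followed by log2 ratios after background correction and quantile normalization. A probe was called detected on an array where its deposited detection p-value was below 0.01. Each error is the bead standard error (SE), which covers the spread among beads of 1 array and not the spread between cultures. There were no replicates, so no ratio was tested, and all ratios to parental share the 1 parental array, the only one without TAT-Cre. Rb loss, TAT-Cre exposure and that single sample cannot be told apart. Probes of empty level, those with a detection p above 0.5, had median intensities of 35.9 to 36.9. Rb1, the deleted gene, read 543, 160, 181 and 170 on the parental, Rb-deleted, WT and ΔCdk arrays with its brighter probe, at position 4421. Whether this probe matches the retroviral transcripts was not determined. Of the 9 complement genes 8 were detected on at least 1 array, as were 12616 genes in all.

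The C1q chains were lower on every TAT-Cre-treated array than on the parental array. C1qb and C1qc were 2.71-fold to 4.01-fold lower, and C1qa, the dimmest chain, 1.42-fold to 1.98-fold lower by its measured values. Among the other detected members, each by its probe of highest mean signal, no log2 ratio to parental went below -0.55 or above 0.38. The second probes of C1s and Serping1 reached 0.76 and 0.51, though the parental array did not detect that C1s probe. In a bulk sample, fewer cells of a type and less RNA per cell cannot be told apart.

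C1qb gave intensities of 168 ± 8.5 (bead SE) in parental MEFs, 71.3 ± 3.9 in Rb-deleted MEFs, 69.9 ± 3.8 in WT MEFs and 59.4 ± 3.1 in ΔCdk MEFs. Only the parental value stood apart by many bead errors. The log2 ratios to parental were -1.56 ± 0.15, -1.67 ± 0.15 and -2.003 ± 0.15, in the same order of treated arrays. C1qc gave 214 ± 11 in parental MEFs, 80.7 ± 3.8 in Rb-deleted MEFs, 93.7 ± 7.3 in WT MEFs and 88.4 ± 4.0 in ΔCdk MEFs. Its log2 ratios were -1.68 ± 0.13, -1.44 ± 0.18 and -1.52 ± 0.13. Above the empty level, the treated arrays kept 17.8% to 26.9% of the parental intensity of C1qb and 25.3% to 32.0% of that of C1qc.

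C1qa was weaker. It gave 73.3 ± 6.6 in parental MEFs from 17 beads, the fewest behind any value of these 13 probes, 57.6 ± 4.6 in Rb-deleted MEFs, 49.1 ± 3.1 in WT MEFs and 49.1 ± 3.0 in ΔCdk MEFs. It was detected on the parental and Rb-deleted arrays and not on the virus-treated ones, where the detection p-values were 0.084 and 0.064. The log2 ratio in Rb-deleted MEFs was -0.50 ± 0.28, within 2 bead SE of 0. Against the virus-treated arrays only a bound is available, and it depends on the background correction. After correction it was at least 1.47-fold lower in WT MEFs and at least 1.54-fold lower in ΔCdk MEFs, and with an offset of 50 at least 1.23-fold and 1.26-fold lower, beside measured log2 ratios of -0.99 ± 0.23 and -0.93 ± 0.24.

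**Figure D1:**
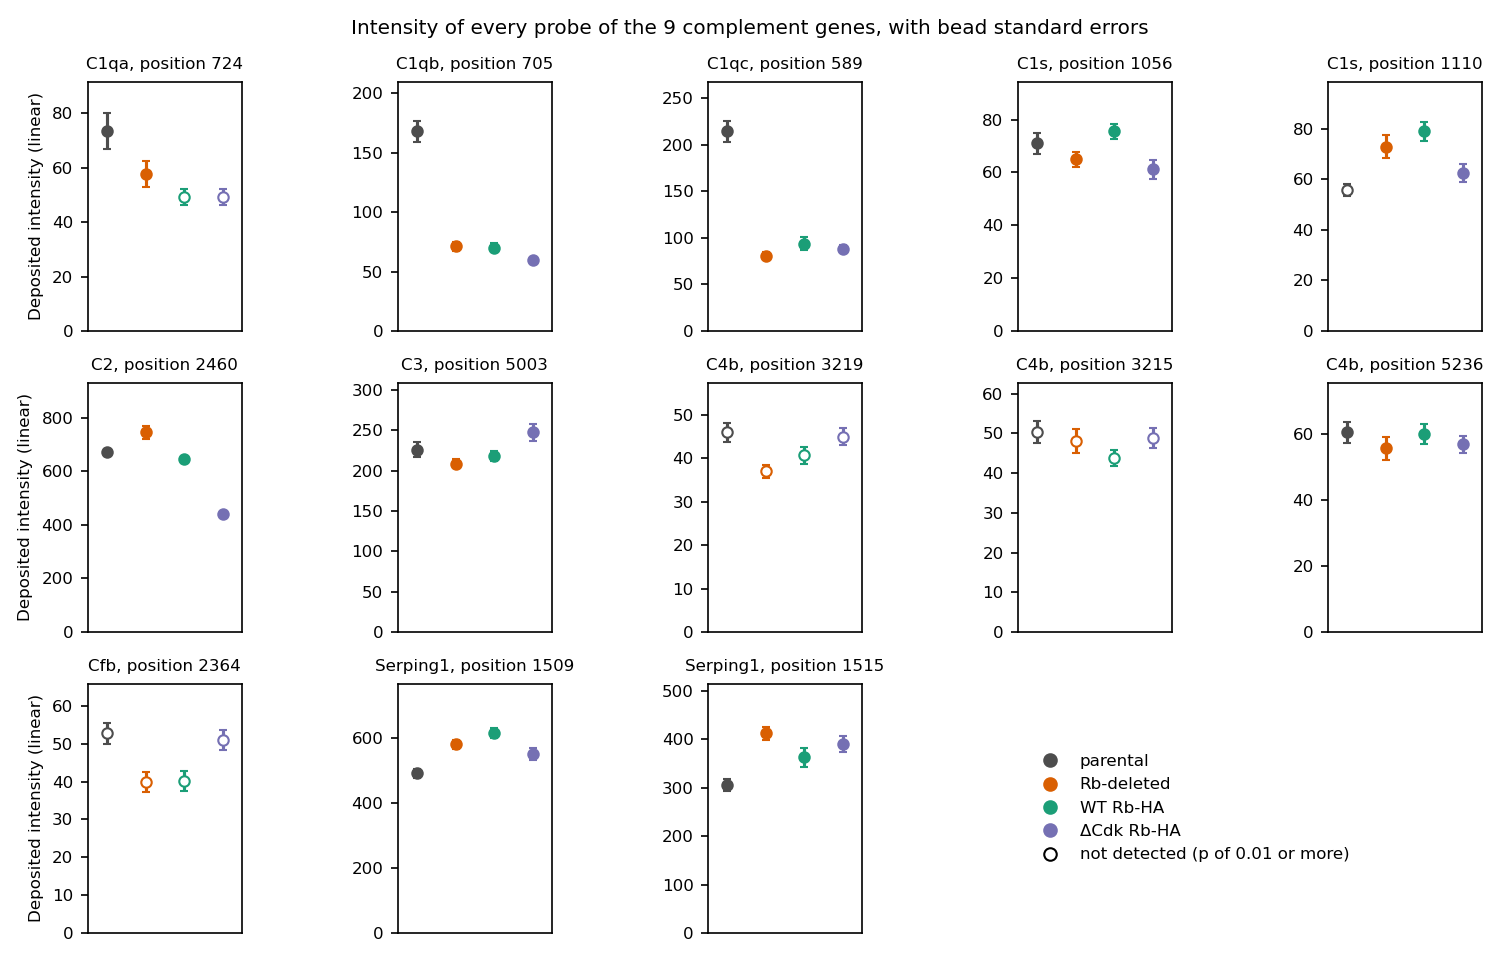
Deposited linear intensity of all 13 probes on the 4 arrays, coloured by condition in the order of the legend, with bars of 1 bead SE and open symbols where the probe was not detected. The parental point lies above the 3 treated points for C1qa (73.3 against 49.1 to 57.6), C1qb (168 against 59.4 to 71.3) and C1qc (214 against 80.7 to 93.7), while the C2 panel has its low point in ΔCdk MEFs (440).

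Changes beyond 1.6-fold were counted over the genes detected on any array. In Rb-deleted MEFs 2.98% of the 12616 genes were more than 1.6-fold lower than parental and 2.14% more than 1.6-fold higher, and of the members C1qb and C1qc were lower. In WT MEFs 2.46% of genes were lower and 0.888% higher, and all 3 C1q chains were lower by their measured values. In ΔCdk MEFs 3.30% were lower and 2.58% higher, and again all 3 chains were lower. The bounds for C1qa fall short of 1.6-fold on both virus-treated arrays, which leaves C1qb and C1qc there. None of the 5 other detected members passed 1.6-fold by its probe of highest mean signal in either direction on any treated array. The second C1s probe read at least 1.63-fold above parental in WT MEFs after background correction, and at least 1.31-fold with an offset of 50. Ranked among all 12616 genes, only 48, 47 and 47 genes had a lower ratio than C1qb on the 3 treated arrays, and 37, 69 and 81 had a lower ratio than C1qc.

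The median log2 ratio of the C1q chains was -1.56 in Rb-deleted MEFs, -1.44 in WT MEFs and -1.52 in ΔCdk MEFs. The median of the other 5 detected members was -0.09, -0.01 and -0.15, close to the medians of all genes (0.02, 0.01 and -0.01). By the measured ratios, the ranges of these groups did not overlap on any treated array. Their nearest members were C1qa and C4b in Rb-deleted MEFs, which differed by -0.33 ± 0.34, less than 1 bead SE, C1qa and C4b in WT MEFs (-0.92 ± 0.29), and C1qa and C2 in ΔCdk MEFs (-0.38 ± 0.24). In Rb-deleted and ΔCdk MEFs the separation of C1qa was thus within 2 bead SE, unlike that of C1qb and C1qc. With an offset of 50 the ranges overlapped in ΔCdk MEFs, with C1qa at -0.47 and C2 at -0.51. The virus-treated arrays did not detect C1qa, so its place below the other members there is not secure.

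C1q differed little between Rb-deleted and WT MEFs and between WT and ΔCdk MEFs. From Rb-deleted to WT MEFs the log2 ratios were -0.48 ± 0.24 for C1qa, -0.11 ± 0.17 for C1qb and 0.24 ± 0.18 for C1qc. From WT to ΔCdk MEFs they were 0.06 ± 0.19, -0.33 ± 0.18 and -0.08 ± 0.18. C1qa between Rb-deleted and WT MEFs, at 2.01 bead SE and with WT undetected, was the only chain to reach 2 bead SE in these comparisons. No member passed 1.6-fold in these comparisons. Of all genes 0.484% were lower and 0.539% higher in WT than in Rb-deleted MEFs, and 1.01% lower and 0.840% higher in ΔCdk than in WT MEFs. ΔCdk and Rb-deleted MEFs were not compared as a ratio. Their normalized log2 signals were 5.143 ± 0.127 and 5.585 ± 0.118 for C1qb, and 6.014 ± 0.097 and 5.853 ± 0.095 for C1qc. For C1qa, undetected in ΔCdk MEFs, they were 4.678 ± 0.136 and 5.103 ± 0.199.

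**Figure D2:**
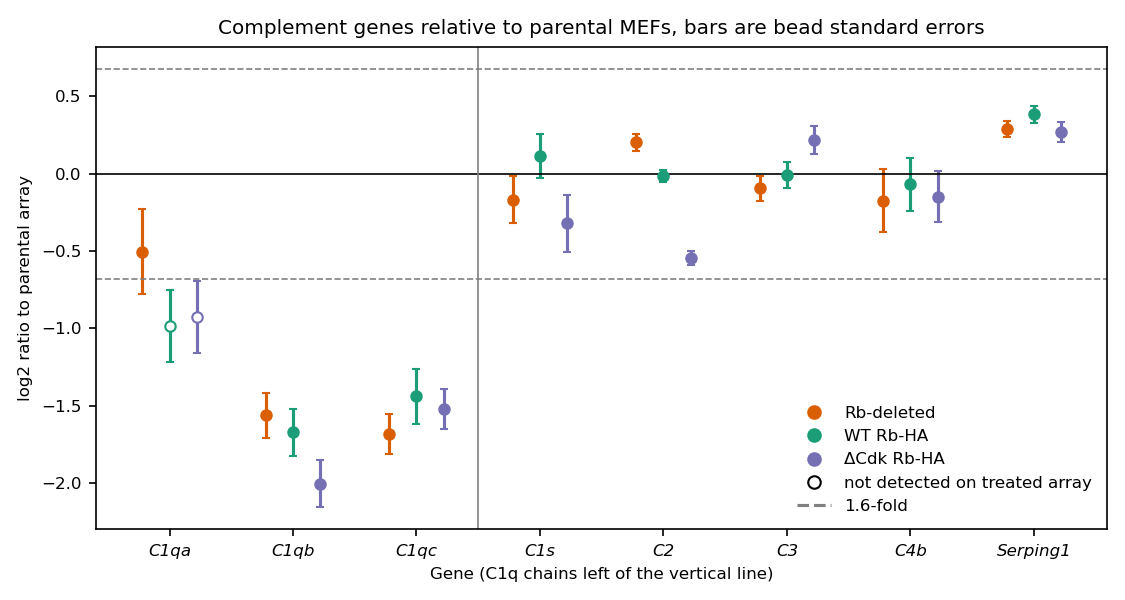
Normalized log2 ratio to the parental array for the 8 detected members, with bars of 1 bead SE, dashed lines at 1.6-fold and open symbols where the treated array did not detect the probe. C1qb and C1qc lie between -1.44 and -2.003 on every treated array. The members right of the vertical line, each by its probe of highest mean signal, lie between -0.55 and 0.38.

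C1s is a protease that works with C1q and C1r. Its probe at position 1056 stood for the gene by its mean signal over the 4 arrays. It was the brighter of the pair on the parental array only. It gave intensities of 71.0 ± 4.0, 64.9 ± 2.9, 75.5 ± 2.7 and 61.3 ± 3.6 in parental, Rb-deleted, WT and ΔCdk MEFs. The log2 ratios to parental were -0.17 ± 0.15, 0.11 ± 0.14 and -0.32 ± 0.18, all within 2 bead SE of 0. The other probe of the pair, shown above, gave 55.8 ± 2.5, 72.9 ± 4.7, 78.9 ± 3.6 and 62.5 ± 3.4 and was not detected on the parental array (detection p 0.014). After background correction it read at least 1.51-fold, 1.63-fold and 1.17-fold higher than parental, and with an offset of 50 at least 1.25-fold, 1.31-fold and 1.08-fold higher. Although 44 of 50 bases are shared, the measured log2 ratios of the pair to parental differed by -0.82 ± 0.24, -0.65 ± 0.20 and -0.61 ± 0.25 (position 1056 minus 1110), and they had opposite signs in Rb-deleted and ΔCdk MEFs. The direction of C1s against the parental array is thus not settled. The pair gave like ratios between treated arrays, with ΔCdk below WT MEFs by -0.44 ± 0.16 with one probe and -0.48 ± 0.16 with the other.

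C2, which C1s cleaves, was the member with the clearest difference among the treated arrays. It gave intensities of 671 ± 13 in parental MEFs, 746 ± 26 in Rb-deleted MEFs, 645 ± 12 in WT MEFs and 440 ± 10 in ΔCdk MEFs. The ΔCdk value was the lowest. Rb-deleted MEFs had the highest, at 3.64 bead SE above parental and 3.84 bead SE above WT MEFs. The log2 ratios to parental were 0.20 ± 0.06, -0.02 ± 0.04 and -0.55 ± 0.04, and ΔCdk was below WT MEFs by -0.53 ± 0.05. This is a 1.44-fold difference at 11.7 bead SE. The difference between ΔCdk and WT MEFs did not pass 1.6-fold, and 270 of 12616 genes (2.14%) had a lower ratio in that comparison. ΔCdk and Rb-deleted MEFs lay farther apart, with normalized log2 signals of 8.75 and 9.499. That gap is beyond 1.6-fold, but this pair was not among the comparisons and has no share of all genes beside it.

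C4, the other substrate of C1s, was near the empty level. The C4b probe at position 5236 gave 60.4 ± 3.1, 55.5 ± 3.6, 59.9 ± 2.9 and 56.7 ± 2.6 in the same order and was detected on all 4 arrays, with detection p-values of 0.0032 to 0.0064. Its log2 ratios to parental were -0.17 ± 0.20, -0.07 ± 0.17 and -0.15 ± 0.16, each within 1 bead SE of 0. This probe shared 22 bases with a probe of Rhot2, a gene detected on all 4 arrays, and whether its signal is of C4b alone was not tested. The other C4b probes, at positions 3219 and 3215 with 46 shared bases, were not detected on any array, with intensities of 37.0 to 50.3. C4b has a near-identical copy, C4a, whose own probe gave 81.0, 71.3, 65.4 and 53.4 and was not detected in ΔCdk MEFs, at least 1.79-fold below parental after background correction and at least 1.38-fold with an offset of 50. Transcripts of the copies may bind each other's probes.

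C3, the central component, gave 226 ± 9.2, 209 ± 6.1, 218 ± 6.2 and 247 ± 10.1. The highest value was that of ΔCdk MEFs, with log2 ratios to parental of -0.09 ± 0.08, -0.01 ± 0.08 and 0.22 ± 0.09. ΔCdk MEFs were above WT MEFs by 0.23 ± 0.08, opposite in sign to C2. Cfb was not detected on any array. It gave 52.7, 39.9, 40.2 and 50.9, with detection p-values of 0.027, 0.405, 0.478 and 0.041, and no ratio is given.

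Serping1, the inhibitor of C1r and C1s, was slightly higher on all treated arrays. Its brighter probe gave 491 ± 13 in parental MEFs, 581 ± 14 in Rb-deleted MEFs, 614 ± 15 in WT MEFs and 551 ± 19 in ΔCdk MEFs. The log2 ratios were 0.29 ± 0.05, 0.38 ± 0.06 and 0.27 ± 0.07, at 4.04 to 6.84 bead SE and all under 1.6-fold. The overlapping probe at position 1515 gave 306 ± 13, 412 ± 13, 363 ± 19 and 391 ± 16 in the same order of arrays, with log2 ratios of 0.51 ± 0.08, 0.32 ± 0.10 and 0.47 ± 0.09. Both probes had their lowest value on the parental array. They ordered the treated arrays differently, with WT highest by the probe at position 1509 and lowest of the treated arrays by the other.

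**Figure D3:**
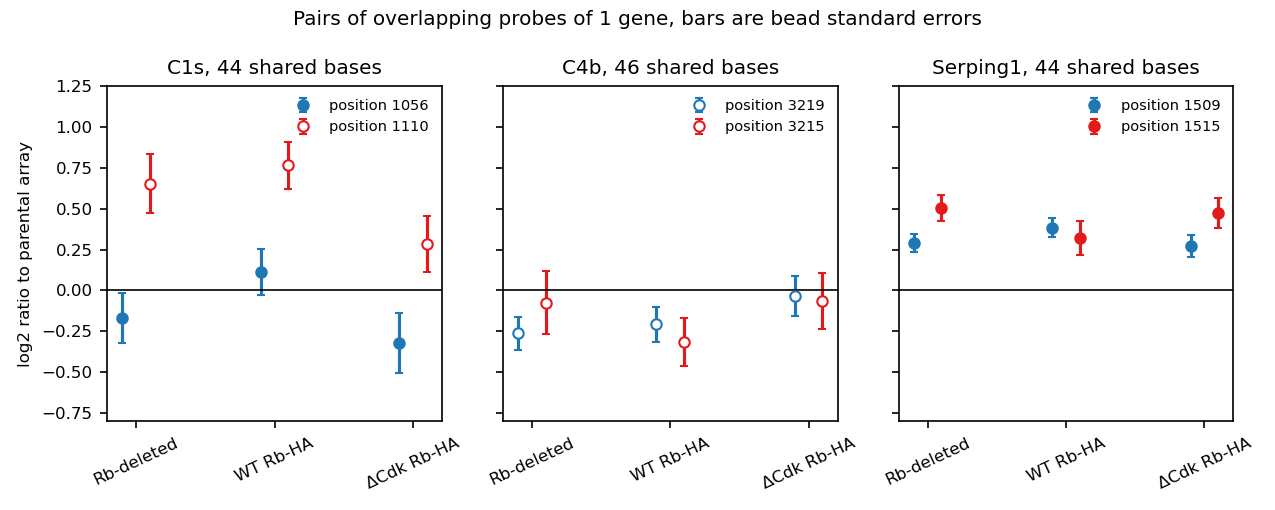
Normalized log2 ratio to the parental array from each probe of the overlapping pairs of C1s, C4b and Serping1, with bars of 1 bead SE and open symbols where the probe was undetected on at least 1 array of the ratio. The C1s probes, which share 44 bases, lie on opposite sides of 0 in Rb-deleted MEFs (-0.17 and 0.65), while both Serping1 probes lie above 0 on every treated array.

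The remaining genes of the pathway were taken from a list of 49 on the array, of which 16 were detected. Of these 2, 1 and 1 were more than 1.6-fold below parental in Rb-deleted, WT and ΔCdk MEFs, and 0, 0 and 2 more than 1.6-fold above. Their median log2 ratios were -0.22, -0.05 and 0.08. C1r, the partner of C1s, was not detected, nor were the terminal components C6, C7, C9 and Hc (C5). C8b and C8g, which encode chains of terminal component C8, were detected on all 4 arrays, at intensities of 67.2 to 72.4 and 68.9 to 81.1. C8a, which encodes another chain of it, was not detected on any array (43.9 to 47.0).

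Cfp encodes properdin, a leukocyte-made stabilizer of the alternative pathway enzyme. It gave intensities of 408, 240, 244 and 258 in parental, Rb-deleted, WT and ΔCdk MEFs, with log2 ratios of -0.77 ± 0.07, -0.75 ± 0.07 and -0.63 ± 0.07. Ptx3, a pattern-recognition protein that can bind C1q, gave 1716, 1018, 1143 and 1081, with ratios of -0.70 ± 0.06, -0.53 ± 0.06 and -0.57 ± 0.07. Both had their highest value in parental MEFs, as the C1q chains did, with smaller differences than C1qb and C1qc.

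The 4 detected regulators Cd55, Cd59a, Cd59b and Crry protect cells from complement at their own surface. All 4 were below parental in Rb-deleted MEFs (log2 ratios of -0.39 to -0.12) and above it in ΔCdk MEFs (0.35 to 0.79). Cd59a, an inhibitor of the membrane attack complex, gave 1099, 806, 968 and 1637, and its ratio in ΔCdk MEFs was 0.70 ± 0.06. Its relative Cd59b gave 157, 135, 164 and 245, with a ratio of 0.79 ± 0.09. No C1q chain had this pattern.

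Macrophage markers were examined because C1q is a macrophage product, and the labels name the cells as embryonic fibroblasts. All 16 fibroblast markers, collagens and Pdgfra among them, were detected on all 4 arrays. Of 32 macrophage and other myeloid markers on the array 25 were detected, 18 of them on all 4 arrays. The myeloid markers were more than 1.6-fold lower than parental for 19, 21 and 20 genes in Rb-deleted, WT and ΔCdk MEFs, and none was higher. Some of these genes passed the detection filter through the parental array alone, where they were highest. Among the 18 detected on all 4 arrays the counts were 15, 16 and 14. The list includes 3 lysozyme entries of related sequence. Its median log2 ratios were -0.999, -1.09 and -1.02, and its summed intensity above the empty level was 13331 in parental MEFs and 6492, 5859 and 7484 in the treated cells. A large part of that sum came from the lysozyme entries. Lyz gave intensities of 4801, 2976, 2803 and 3611, Lyzs gave 1202, 670, 672 and 883, and Lyz2 gave 834, 461, 430 and 696. The C1q chains summed to 346 and then 102, 102 and 88.9, and the other detected members to 1337, 1476, 1427 and 1177.

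Emr1, which encodes the macrophage surface protein F4/80, gave 773, 247, 203 and 198, with log2 ratios to parental of -1.69 ± 0.06, -2.02 ± 0.07 and -2.02 ± 0.07. Csf1r, the receptor for macrophage colony-stimulating factor, gave 272, 159, 134 and 140, and the lysosomal Cd68 gave 170, 97.8, 93.0 and 99.9. Mpeg1 had the lowest ratio of the list in Rb-deleted MEFs (-1.78 ± 0.08), while Tyrobp (-0.64 ± 0.15) and Aif1 (-0.65 ± 0.12) had the highest among markers detected on all 4 arrays. Ptprc, the pan-leukocyte CD45 gene, was not detected, with intensities of 54.2, 42.7, 41.8 and 44.1. Fcer1g, Cybb, Msr1, Marco, Siglec1 and Lyz1 were not detected either. The share of the C1q difference that goes with these markers was not tested.

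C1qb and C1qc lay at the low end of the myeloid list, with 2 of its 25 genes below each of them in Rb-deleted MEFs, 4 and 6 below them in WT MEFs and 1 and 3 in ΔCdk MEFs. C1qa had 24 of the 25 below it in Rb-deleted MEFs, and it is not ranked on the virus-treated arrays, which did not detect it. Not every myeloid marker kept to the C1q pattern. Cd53 gave 218, 116, 148 and 266 and was above parental in ΔCdk MEFs (0.39 ± 0.10), where C1qb was at its lowest. Cd53 is named after its values were seen, as the 1 of 25 above parental there. Of 9 complement receptor genes, which were not on the myeloid list, 2 were detected. Itgb2, detected on 1 array, gave 53.5, 56.0, 48.3 and 53.9, and Cd93 gave 91.8, 72.2, 68.5 and 68.9. Itgam, Itgax, C3ar1, C5ar1 and Vsig4 were among those not detected.

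The fibroblast markers had median log2 ratios of -0.15, -0.12 and -0.34 and summed to 131217, 116687, 125052 and 114671 above the empty level. They were more than 1.6-fold lower for 1, 0 and 2 of 16 genes. Col3a1 (-0.73 ± 0.07) and Lum (-0.50 ± 0.04) had the lowest ratios in Rb-deleted MEFs and Dcn (0.38 ± 0.04) and Thy1 (0.37 ± 0.06) the highest. The medians of C1s, C2, C3, C4b and Serping1 were nearer to those of the fibroblast list than to those of the myeloid list on each treated array. Any genes of little change would meet this, so it cannot tell which cells made these members. Of other cell types' markers, 1 of 8 endothelial, 2 of 7 lymphocyte, 2 of 9 neutrophil and mast cell, 5 of 7 epithelial and 0 of 8 hepatocyte genes were detected. The epithelial markers, keratins among them, had median log2 ratios of -0.03, 0.34 and -0.13, and none passed 1.6-fold. S100a8, a neutrophil and myeloid marker, gave 150, 128, 165 and 311, and its ratio of 1.26 ± 0.08 in ΔCdk MEFs was opposite in sign to those of the C1q chains. However, S100a9 (34.0 to 37.7) and the other neutrophil genes of that list were not detected on any array.

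**Figure D4:**
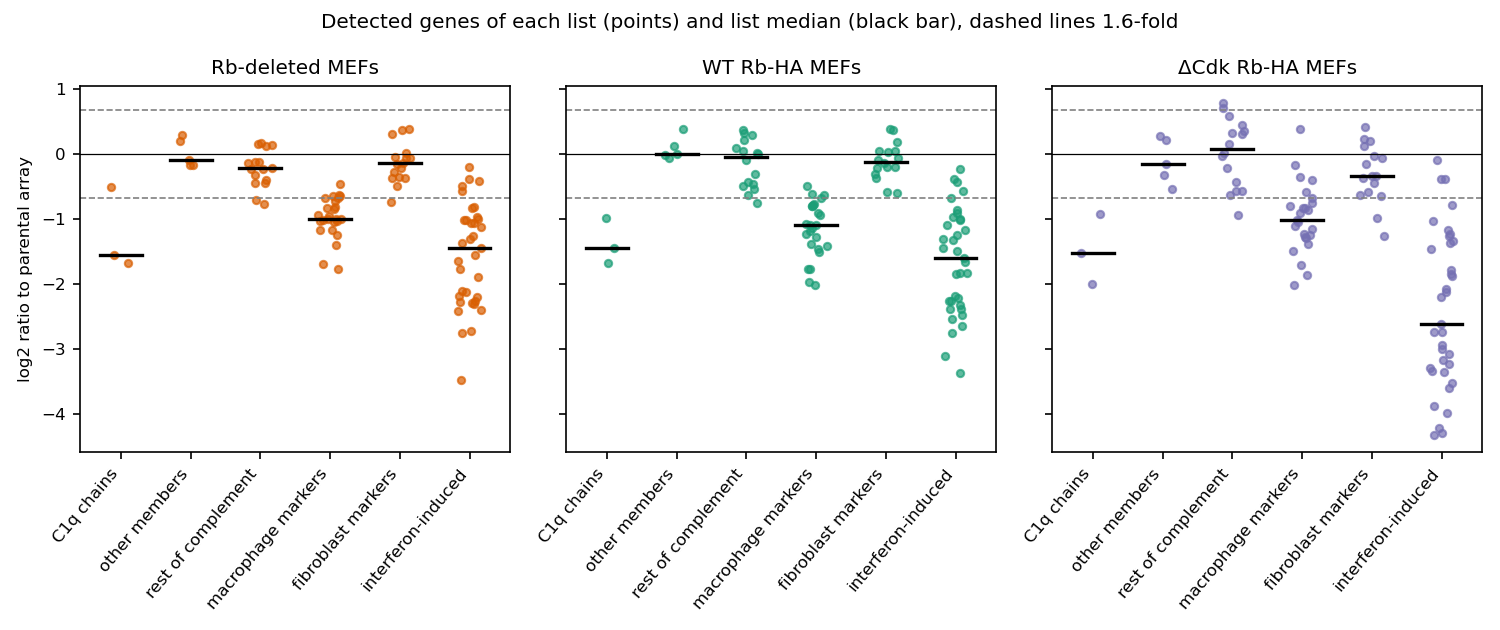
Normalized log2 ratios to the parental array of the detected genes of 6 lists, 1 panel per treated array, with points for genes, black bars for list medians and dashed lines at 1.6-fold. The medians of the C1q chains (-1.56, -1.44 and -1.52) and the macrophage markers (-0.999, -1.09 and -1.02) lie below those of the other members (-0.09, -0.01 and -0.15) and the fibroblast markers (-0.15, -0.12 and -0.34). Interferon-induced genes are also low, with medians of -1.45, -1.61 and -2.62. Single points of the lists overlap.

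Interferon and inflammatory signals are known inducers of C2, C3, C4, Cfb and Serping1, so their targets are given beside these members. Of 38 interferon-induced genes on the array 35 were detected, and 30, 31 and 32 were more than 1.6-fold below parental in Rb-deleted, WT and ΔCdk MEFs. Among the 28 detected on all 4 arrays the counts were 23, 24 and 25. The median log2 ratios of the 35 were -1.45, -1.61 and -2.62. Ifit3 (-2.75 ± 0.06) and Oasl1 (-2.72 ± 0.12) were lowest in Rb-deleted MEFs among those detected on all 4 arrays, and Tapbp (-0.20 ± 0.12) and Irgm1 (-0.39 ± 0.05) highest. Between ΔCdk and WT MEFs the list had a median of -0.71, with 18 of 35 genes more than 1.6-fold lower. C2 (-0.53) was lower in that comparison too, C3 (0.23) was higher, and Serping1 (-0.11 ± 0.07) was within 2 bead SE of 0. Unlike most of the interferon list, C2, C3 and Serping1 were not more than 1.6-fold below parental on any array. C4b, near the empty level, was not either, and Cfb was not detected. C4a, the copy of C4b, was at least 1.79-fold below parental in ΔCdk MEFs after background correction, and at least 1.38-fold with an offset of 50.

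Of 19 detected cytokine, NF-κB and STAT3 response genes, out of 21 on the array, 5, 4 and 8 were more than 1.6-fold lower than parental and 0, 1 and 2 higher, with medians of -0.38, -0.37 and -0.43. Ccl5 (-1.97 ± 0.07) and Tnfaip3 (-1.30 ± 0.09) were lowest in Rb-deleted MEFs. Cebpd (0.36 ± 0.06) and Saa3 (0.58 ± 0.11), an acute-phase gene, were highest.

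Neighbouring genes were read for the same arrays. Of 25 listed genes within 250 kb of a member 18 were detected, and their median log2 ratios were 0.04, -0.01 and -0.15, with 2, 1 and 1 more than 1.6-fold lower and none higher. Ube2l6 (-0.80), near Serping1, and Ptpn6 (-0.76), near C1s, had the lowest ratios in Rb-deleted MEFs, and Rdbp (0.54) and Tnxb (0.44), both near C2, Cfb and C4b, the highest. Ephb2, the only detected one of those listed near the C1q genes, had ratios of 0.13, 0.02 and -0.30.

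The genes closest to the mean C1q profile were ranked by the Euclidean distance of their 3 log2 ratios among 10830 genes detected on all 4 arrays. They were AI607873 (distance 0.078), Spock3 (0.114), Nckap1l (0.119), Pdgfb (0.160) and LOC100047963 (0.175). The chains themselves lay 0.44 to 1.01 from their mean, and 108 genes lay within the distance of the farthest chain. This mean includes C1qa, undetected on the virus-treated arrays. Around the mean of C1qb and C1qc alone the nearest genes were Gpr84, Casp1, Ms4a6d, Rb1 and Ddx58, at distances of 0.142 to 0.298. None of these was among the 5 above, and only 3 genes lay within the distance of either chain (0.275). Around the mean of the other members the nearest were Med12, Srebf2, Rbm42, Glrx2 and Tubb2c, at distances of 0.018 to 0.031. As many as 7750 genes lay within the distance of the farthest of those members, so that profile was close to no change and shared with most genes.

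Sequence before the start site was read in RefSeq's promoter table (GRCm38.p6) for the members it lists, C1qb, C1qc, C1s1 (2 start sites) and C3. C1qa, C2, C4b, Cfb and Serping1 had no entry. The 250 bases before the start are shown for the C1q genes that moved together. Capitals mark GAGGAA, the core bound by the myeloid factor PU.1, read on either strand. Both sequences run 5′ to 3′ on the gene's strand, which is the minus strand.
C1qb, chr4:136886201-136886450: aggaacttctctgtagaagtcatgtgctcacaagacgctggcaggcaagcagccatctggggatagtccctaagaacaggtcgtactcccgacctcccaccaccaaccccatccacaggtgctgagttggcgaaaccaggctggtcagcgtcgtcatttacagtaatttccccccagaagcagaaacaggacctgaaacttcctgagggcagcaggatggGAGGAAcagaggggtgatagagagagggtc
C1qc, chr4:136892915-136893164: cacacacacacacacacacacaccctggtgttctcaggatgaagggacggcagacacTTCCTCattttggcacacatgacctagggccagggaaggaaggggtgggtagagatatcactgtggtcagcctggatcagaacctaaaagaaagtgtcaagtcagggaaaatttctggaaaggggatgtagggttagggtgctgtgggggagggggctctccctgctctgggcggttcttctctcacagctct
The match begins at -30 from the start site in C1qb and at -193 in C1qc, where it lies on the opposite strand. The searched window also took in the first bases after the start site (chr4:136886151-136886450 for C1qb). GAGGAA was not found in that window of C1s1 or C3. It occurs in 23.3% of the 32851 promoters of the table, so 1 match is common. No C1q, C1s1 or C3 window held GAAANNGAA, an interferon response motif found in 7.13% of promoters, TTCNNNGAA, a STAT motif found in 7.02%, or TTTGGCGC, an E2F motif found in 0.417%. The gene for PU.1, listed as Sfpi1, was detected on 1 array, the parental one.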

How the data were processed

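Whole-genome expression was measured on 4 Illumina arrays on 1 chip, 1 array per condition, with groups taken from the sample labels. The authors deposited the bead-averaged intensity of each probe on a linear scale, not normalized between arrays, with its detection p-value, bead standard error and count of beads. The scanner software is not given in the sources used here. The deposited detection p-value moves in steps of 1 in 936. Mean intensity was 336 to 346 per array, 15950 to 16740 probes were detected on each, and member probes had 17 to 66 beads. The number of arrays limits the precision.

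Background was corrected with limma (version 3.58.1, R 4.3.3) by normexp, which took the background from the detection p-values, with 16 added as offset, and values were quantile normalized and log2 transformed. The offset pulls ratios of dim probes towards 0. Genes detected (p-value below 0.01) on any array were kept, and the probe with the highest mean normalized signal stood for its gene. A ratio beyond 1.6-fold was counted. Bead errors were carried through each array's mapping and combined over both arrays. Where 1 array of a ratio did not detect the probe, the bound was taken against the higher of the dim value and the lowest detected value on that array. The calculation was tested on simulated data. Python 3.11.15, numpy 2.4.6, matplotlib 3.10.9 and pandas 2.3.3 did the rest.

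The members and gene lists were chosen with earlier results of these data known, so their counts are descriptions. Named genes were all members and their probes, Rb1, the other complement genes beyond 1.6-fold of parental, Emr1, Csf1r, Cd68 and Ptprc, the 5 genes nearest each mean profile, and the 2 lowest and 2 highest ratios in Rb-deleted MEFs among genes detected on all 4 arrays of the myeloid, fibroblast, interferon, cytokine and neighbour lists. The fixed rule also covered the other marker lists, given here as counts, apart from S100a8 and S100a9. These, Cd53, the lysozyme entries and the complement receptor genes were named after their values were seen. The neighbour list was limited to 25 of 26 genes by RefSeq position. Genome positions come from RefSeq (GRCm38.p6) by gene, not from the deposited table. Alternatives were run for background, offset, normalization, detection filter, probes per gene and fold.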

Additional observations from a re-analysis of the deposited data

Results flagged for a closer look

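C2 went in opposite directions on 2 treated arrays against the same parental array, with a log2 ratio of 0.204 in Rb-deleted MEFs and -0.545 in ΔCdk MEFs. Each condition was 1 array, and the difference was not tested.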

How the results depend on the processing

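Of 110 recomputed values of 13 results, none reversed, 101 stayed within the bead error or the count limit and 9 moved. Without background correction the median log2 ratio of the C1q chains was -1.20 in Rb-deleted, -1.18 in WT and -1.24 in ΔCdk MEFs, and with an offset of 50 it was -1.10, -1.10 and -1.15. With detection required on all 4 arrays, which removes C1qa, it was -1.76 in ΔCdk MEFs. With the mean over a gene's detected probes the median of the other members was 0.204 in Rb-deleted MEFs and -0.018 in ΔCdk MEFs, since the C1s probes differ. The number of members beyond 1.6-fold lower was 2 in Rb-deleted MEFs under every alternative and 2 to 3 in WT and ΔCdk MEFs. No paired analysis was possible because each condition had 1 array. Chosen after seeing the data, leaving C1qa out of the mean C1q profile took the genes within its farthest chain from 108 to 3. Signals of C1qa, C1s, C4b and Cfb lay near background.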
